A study of Homo sapiens with 6 samples.

Results

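Genes of 6 STAT transcription factors (STAT2, STAT3, STAT4, STAT5A, STAT5B and STAT6) and 3 genes of the Janus kinases (JAK1, JAK2 and TYK2) were described here in human lung cancer cells with over-expressed CELF6. The 9 genes were chosen by symbol from a table of 29889 genes, and each symbol had 1 row. JAK kinases sit on the inner ends of cytokine and interferon receptors, and when a ligand joins the receptor chains they phosphorylate one another, the receptor and the STAT proteins that dock there. Phosphorylated STATs pair up, enter the nucleus and switch on target genes. In airway epithelium the pathway carries the interferon response to viruses, the IL-6 family response of acute inflammation and the IL-4 and IL-13 response of allergic inflammation.

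A549 cells, an established line from a human lung adenocarcinoma, were transfected by lipofection. CELF6-OE cells received a plasmid carrying CELF6, an RNA binding protein of the CELF family, and Control cells received the empty plasmid. Cells of both groups were harvested 48 h after transfection. Polyadenylated RNA was sequenced from 3 biological replicates per group. The model is therefore a transient rise of one protein in 1 cell line, and the RNA of all cells of a dish was read together, transfected or not.

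Each library held between 33748328 and 37920700 gene counts, and the 9 genes together took between 0.0394% and 0.0494% of them. CELF6 had 0 counts in each Control library and 18646, 20789 and 11571 counts in CELF6-OE replicates 1, 2 and 3, in the direction of the labels. CELF6-OE replicate 3 thus had the least CELF6 of the transfected libraries, at 172.27 FPKM (fragments per transcript length and sequencing depth) against 270.09 and 294.94. The mitochondrial share of the counts lay between 8.69% and 10.1%. All 11 epithelial marker genes reached 1 FPKM in at least 1 library, with KRT8 at 2530 ± 110 FPKM (SD, n = 3) and KRT18 at 2334 ± 120 FPKM in Control. Their summed level was 8536 to 9878 FPKM in CELF6-OE and 10630 to 10850 FPKM in Control, with 6 of the 11 lower and 0 higher in CELF6-OE by the test described below, where 11.5% of all genes tested were lower and 6.47% higher. Of 17 leukocyte markers, 13 were in the table and 5 passed the filter on low counts. Their summed level was 4.63 to 5.98 FPKM in CELF6-OE and 4.74 to 5.15 FPKM in Control, most of it from CD14, and 2 of the 5 (ITGAM and ITGAX) were lower in CELF6-OE. The 9 fibroblast and endothelial markers in the table summed to 0.27 to 0.36 FPKM in CELF6-OE and 0.44 to 0.48 FPKM in Control; PECAM1, at 0.0533 ± 0.0115 FPKM in Control, was the 1 of 2 tested that was lower. The part of these markers in the results was not tested.

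All 9 STAT and JAK genes passed the filter on low counts, with between 61 and 5527 counts per library. In CELF6-OE, STAT2 and STAT5A were at 0.496 and 0.420 of their Control level, and STAT3 and STAT6 were at 0.757 and 0.746 of it. STAT5B and JAK1 overlapped between the groups, as did JAK2. STAT4 and TYK2 were lower in every CELF6-OE library after scaling, by a margin that did not pass the test. By edgeR's quasi-likelihood test, with p-values adjusted over all 15847 genes tested, 4 of the 9 genes were lower in CELF6-OE at adjusted p under 0.05, where 11.5% of all tested genes were. None of the 9 was higher, where 6.47% of all genes were. At the stricter rule of the study's methods (p under 0.01 together with a 1.5-fold or larger difference, called DEG below), 2 of the 9 were lower, against 5.91% of all genes, and 0 were higher, against 1.36%. The study's results name an FDR under 0.05 in place of that p. With adjusted p under 0.05 and the same fold change, 2 members were called as well. On scaled CPM (counts brought to a common library size), 6 of the 9 genes were lower in each CELF6-OE library than in any Control library, which held for 20.0% of all genes, and no member lay wholly higher, as 17.9% of all genes did. STAT4 was among the 6 by a narrow margin (11.33 in CELF6-OE replicate 3 against 11.46 in Control replicate 3) and overlapped on FPKM. The median log2 fold change was -0.40 over the 9 genes and 0.01 over all genes tested. In these bulk samples fewer cells that express a gene and less of its RNA per cell cannot be told apart.

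**Figure D1:**
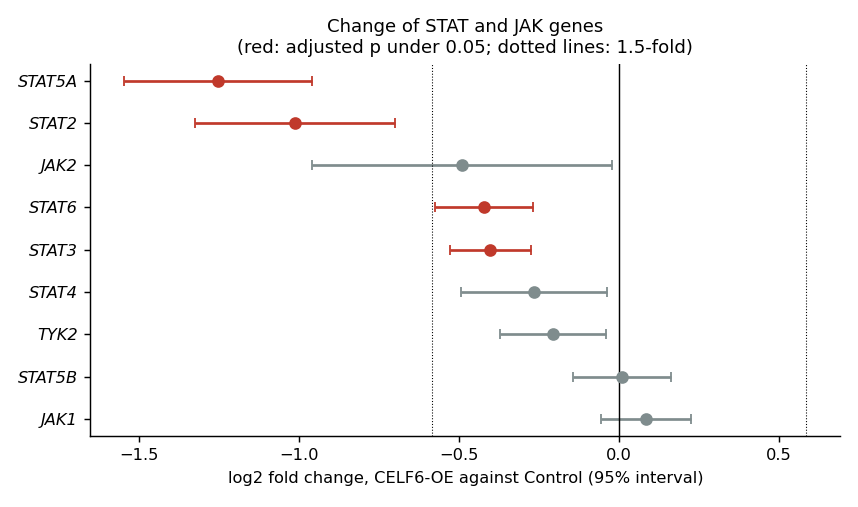
Log2 fold change of each gene in CELF6-OE against Control (x axis) with its 95% interval; red marks an adjusted p under 0.05 and the dotted lines mark a 1.5-fold change. STAT5A (-1.25) and STAT2 (-1.01) lie past the dotted line, STAT6 (-0.42) and STAT3 (-0.40) lie between it and 0, and the intervals of STAT5B and JAK1 contain 0.

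The members lie on 6 chromosomes (GRCh38). STAT5B (chr17:42199176-42288633, minus strand, 19 exons), STAT5A (chr17:42287547-42311943, plus strand, 19 exons) and STAT3 (chr17:42313324-42388540, minus strand, 24 exons) are neighbours. STAT5B and STAT5A overlap head to head by 1087 bp, and 1380 bp separate STAT5A from STAT3. The genes of this cluster differed in their response: STAT5A was at 0.420 of Control, STAT3 at 0.757 and STAT5B at 1.01. STAT2 (chr12:56341597-56360203, minus strand, 24 exons) and STAT6 (chr12:57095408-57132139, minus strand, 22 exons) lie on the same chromosome. STAT4 lies at chr2:191029576-191151596 (minus strand, 24 exons), JAK1 at chr1:64833223-65067754 (minus strand, 25 exons), JAK2 at chr9:4984390-5129948 (plus strand, 25 exons) and TYK2 at chr19:10350533-10380608 (minus strand, 25 exons).

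STAT5A and STAT5B, the pair of neighbours with different outcomes, are close copies, so their sequences are shown to make plain how reads can tell them apart. Their coding sequences (2385 bases for STAT5A, 2364 for STAT5B) were identical at 89.0% of aligned bases, and the longest identical run was 429 bases. The stretch below was picked as the 60 aligned bases without a gap that differ most, so it is not typical of the pair. It lies early in the coding sequence (bases 109 to 168 of both, 5′ to 3′, GENCODE transcripts on GRCh38) and differed at 21 of 60 bases, which are in capitals.
STAT5A: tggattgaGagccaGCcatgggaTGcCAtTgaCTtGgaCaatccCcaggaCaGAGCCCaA
STAT5B: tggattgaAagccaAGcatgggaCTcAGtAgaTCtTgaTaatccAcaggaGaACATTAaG
Of 2236 aligned windows of 150 bases, the read length given in the labels, 12.5% were identical in both genes and 27.4% had at most 4 mismatches; the median window had 14. The authors counted reads with a single genomic location. A read within an identical window matches both coding sequences when taken alone, but reads were paired and its mate may lie elsewhere. How many reads this touched was not tested.

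The upstream sequences of the members that fell most, STAT2 and STAT5A, are shown because STATs are known to act on their own family's promoters through 2 kinds of element. The interferon stimulated response element (ISRE) was searched as the core GAAA, any 2 bases, GAAA. The gamma activated site (GAS) was searched as TTCNNNGAA and, in the longer spacing known for STAT6, with 4 free bases in place of 3. The search covered both strands of the 250 bases before each RefSeq start site (GRCh38.p14). Matches of different motifs were allowed to overlap. All 9 genes matched the RefSeq table, with 17 start sites.
STAT2 (chr12:56360204-56360357, minus strand, the 154 bases outside the annotated gene): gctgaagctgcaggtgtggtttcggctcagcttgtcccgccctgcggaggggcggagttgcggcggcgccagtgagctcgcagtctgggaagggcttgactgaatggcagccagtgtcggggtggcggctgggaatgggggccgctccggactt
STAT5A (chr17:42287189-42287438, plus strand, start site 1, with the match to the longer GAS in capitals): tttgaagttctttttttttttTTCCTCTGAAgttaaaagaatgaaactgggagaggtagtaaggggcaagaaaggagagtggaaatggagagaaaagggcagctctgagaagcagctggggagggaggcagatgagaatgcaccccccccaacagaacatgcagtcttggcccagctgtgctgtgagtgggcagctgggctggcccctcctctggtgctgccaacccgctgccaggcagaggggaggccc
The match in the STAT5A sequence began at position -229 from the start site and was the only one among the 17 windows. The ISRE core and TTCNNNGAA were found in 0 of the 17. These windows are not 17 separate upstream sequences. All 250 bases lie in annotated exons for STAT5A start site 3 and, in the pseudogene CSNK1G2P1, for JAK2 start site 4. The STAT6 window holds 209 exon bases and that of JAK1 start site 1 holds 197. Windows 1 and 2 of STAT5A overlap, as do windows 2 and 3 of JAK2. Of 35116 promoter windows of the same length over all genes, 3.02% held the ISRE core, 6.57% TTCNNNGAA and 5.38% the longer GAS.

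In Control cells the members spanned a wide range of levels. STAT3 was the most abundant at 27.8 ± 0.33 FPKM (SD, n = 3), followed by STAT6 at 23.6 ± 1.14, JAK1 at 19.1 ± 1.37, STAT2 at 13.5 ± 0.64, TYK2 at 7.49 ± 0.32, STAT5B at 5.83 ± 0.11, STAT4 at 3.38 ± 0.33, STAT5A at 1.05 ± 0.025 and JAK2 at 0.547 ± 0.15. No neighbours in this order had overlapping ranges. Among all 15847 genes tested, STAT3 stood at the 86.4th percentile of Control FPKM and JAK2 at the 20.5th.

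In CELF6-OE cells neighbours in this order came together at 3 places. JAK1 (20.6 ± 0.98 FPKM) passed STAT6 (18.0 ± 0.61 FPKM) and its range overlapped that of STAT3 (21.5 ± 0.73 FPKM). STAT2 (6.84 ± 1.78 FPKM) came down into the ranges of TYK2 (6.63 ± 0.32 FPKM) and STAT5B (5.99 ± 0.19 FPKM). STAT5A (0.447 ± 0.045 FPKM) reached the range of JAK2 (0.393 ± 0.076 FPKM). STAT2 made up 18.0% of the summed FPKM of the 6 STAT genes in Control and 12.2% in CELF6-OE, and its percentile among all genes went from 76.4 to 65.1.

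**Figure D2:**
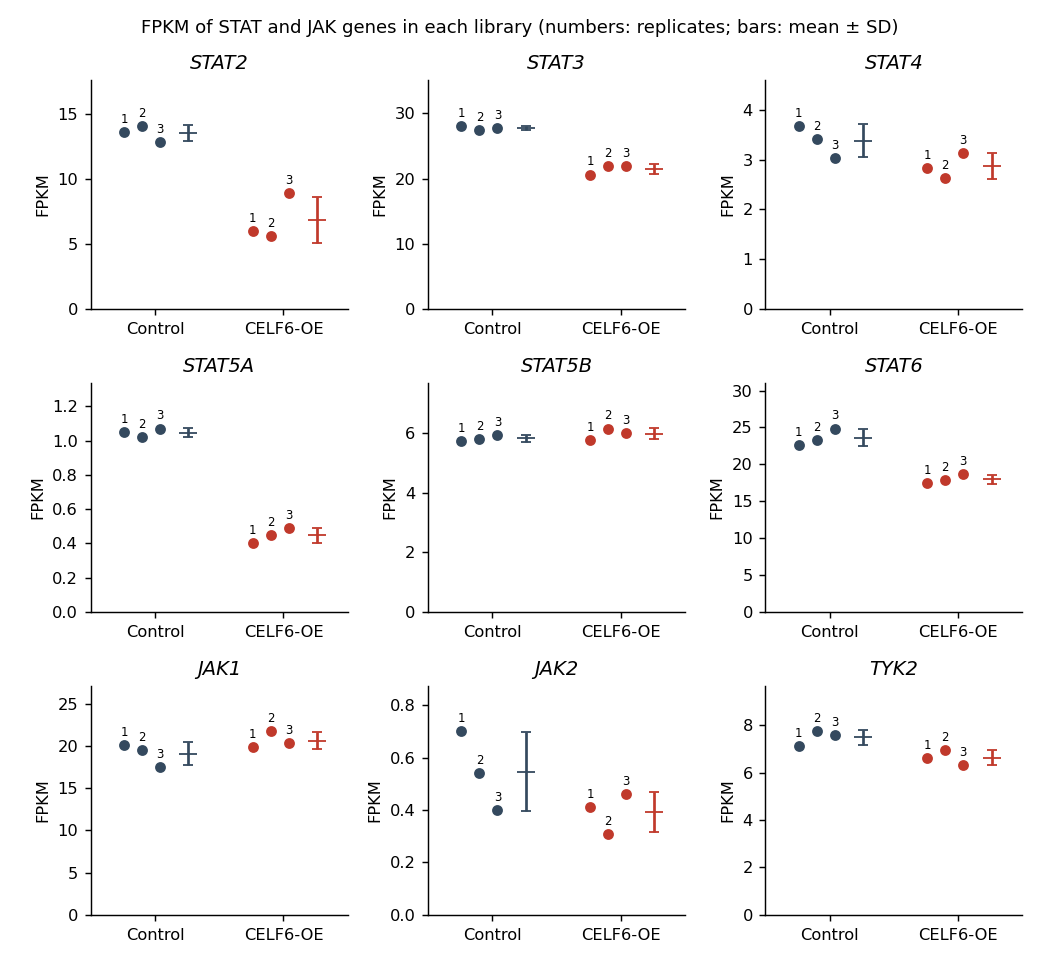
FPKM (y axis, from 0) of each STAT and JAK gene in each Control and CELF6-OE library; points are libraries, numbers are replicates, and the bars beside them are mean ± SD. STAT2, STAT3, STAT5A, STAT6 and, by a small margin, TYK2 are lower in all 3 CELF6-OE libraries. STAT4, STAT5B, JAK1 and JAK2 overlap. CELF6-OE replicate 3 stands above the other CELF6-OE libraries for STAT2 (8.88 against 6.02 and 5.61).

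STAT2 is the STAT of the type I and type III interferon response, where it joins the DNA-binding protein IRF9 in the complex ISGF3. Its FPKM was 13.6, 14.08 and 12.82 in Control replicates 1 to 3 and 6.02, 5.61 and 8.88 in CELF6-OE replicates 1 to 3. The lowest Control library stood well above the highest CELF6-OE library. The log2 fold change was -1.01 (SE 0.14, 95% interval -1.32 to -0.70, edgeR adjusted p = 0.000686), which is 0.496 of the Control level. STAT2 was a DEG, and the adjusted p stayed at or below 0.00653 under 17 alternative analyses (other scalings, filters and tests, and each library left out in turn).

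STAT2 was the member with the most uneven CELF6-OE libraries: the SD of its scaled log2 CPM was 0.358 there and 0.060 in Control. Replicate 3, the library with the least CELF6 (39.0% below the mean FPKM of the other two), had 52.7% more STAT2 than that mean. STAT5A was 15.3% higher in the same library, JAK2 27.8% and STAT4 15.2%, whereas STAT3, STAT5B, STAT6 and JAK1 differed by between -2.14% and 5.43% and TYK2 by -6.92%. With 3 libraries no relation to the CELF6 level was tested. Without CELF6-OE replicate 3 the log2 fold change of STAT2 was -1.25.

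IRF9, the partner of STAT2, had between 0 and 2 counts in every library and was not tested. Its annotated position (chr14:24161234-24168043) is overlapped on the same strand by a readthrough gene, ENSG00000259529 (chr14:24147548-24166452, plus strand), which had 3793, 3994 and 3984 counts in Control and 3203, 3185 and 3116 counts in CELF6-OE. That gene, singled out after its values were seen, was lower in CELF6-OE by edgeR (log2 fold change -0.23, SE 0.060, adjusted p = 0.0206). How reads of IRF9 itself were shared between the overlapping rows was not tested.

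STAT3 is the main STAT of IL-6, oncostatin M and related cytokines, and drives acute phase genes. It had 28.14, 27.49 and 27.76 FPKM in Control and 20.64, 21.88 and 21.93 FPKM in CELF6-OE. The groups were far apart for their spread, with an SD below 1 FPKM in each. Its log2 fold change was -0.40 (SE 0.058, 95% interval -0.53 to -0.28, edgeR adjusted p = 0.000794), or 0.757 of Control, below the 1.5-fold of the DEG rule. The call held under all 17 alternatives, with adjusted p at most 0.0107.

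STAT6 is the STAT of IL-4 and IL-13. Its levels were 22.62, 23.35 and 24.86 FPKM in Control and 17.42, 17.94 and 18.64 FPKM in CELF6-OE, with every CELF6-OE library under every Control library. The log2 fold change was -0.42 (SE 0.070, 95% interval -0.58 to -0.27, edgeR adjusted p = 0.00193), 0.746 of Control. It too was not a DEG, and its adjusted p was at most 0.0177 over the 17 alternatives. STAT6 shares 69 bases of exon (0.946% of its exon bases) with NAB2 and 59 (0.808%) with LRP1, both on the opposite strand. NAB2 (log2 fold change -0.07, edgeR adjusted p = 0.680) and LRP1 (-0.24, adjusted p = 0.120) did not pass the test.

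STAT5A and STAT5B answer to prolactin, growth hormone, GM-CSF and IL-2 type cytokines. STAT5A had 1.05, 1.02 and 1.07 FPKM in Control (190, 191 and 201 counts) and 0.40, 0.45 and 0.49 FPKM in CELF6-OE (70, 80 and 82 counts). The groups were widely separated. It had the largest fold of the 9 genes, with a log2 fold change of -1.25 (SE 0.13, 95% interval -1.55 to -0.96, edgeR adjusted p = 0.000109), or 0.420 of Control, and was a DEG. The adjusted p was at most 0.00174 over the 17 alternatives. That value came from limma on log2(FPKM + 1), which kept genes at 1 FPKM or more in at least 3 libraries. STAT5A met this only through its Control libraries. The next largest adjusted p, by edgeR without CELF6-OE replicate 1, was 0.00131.

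STAT5B had 5.73, 5.81 and 5.94 FPKM in Control and 5.79, 6.16 and 6.01 FPKM in CELF6-OE. The groups overlapped, and its libraries were the most alike of the 5 members that did not pass the test. Its fold change was 1.01 with a 95% interval from 0.904 to 1.12 (edgeR adjusted p = 0.947), so these libraries leave room for a shift of about 10% in either direction. The annotation gives STAT5A and STAT5B 415 shared exon bases on opposite strands, 6.5% of the exon bases of STAT5A and 3.43% of those of STAT5B.

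Within a library, STAT5A stood at 0.183, 0.176 and 0.180 of the STAT5B FPKM in Control and at 0.0691, 0.0731 and 0.0815 in CELF6-OE. This ratio does not depend on library scaling, and its groups did not overlap. The difference in the log2 ratio was -1.27 (SE 0.073), with an exact permutation p of 0.1, which is the smallest that 3 against 3 libraries can give (two-sided; 0.12 after adjustment over 6 ratios).

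STAT4, the STAT of IL-12 signalling, is best known from T and NK cells. It had 3.68, 3.42 and 3.03 FPKM in Control and 2.82, 2.63 and 3.14 FPKM in CELF6-OE, where replicate 3 passed the lowest Control library. After TMM scaling the CPM of the groups did not overlap. The log2 fold change of -0.27 (SE 0.10, 95% interval -0.49 to -0.04) had an edgeR adjusted p of 0.102, and over the 17 alternatives the adjusted p ran from 0.0444 (without Control replicate 3) to 0.311. STAT4 shares exon bases with 2 antisense RNA genes, of which STAT4-AS1 had 0 or 1 count per library and ENSG00000288064 had no row in the table. Leukocyte markers beside it were low: CD14 was the one of 17 that reached 1 FPKM in any library.

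Among the kinases, JAK1 serves nearly all interferon and IL-6, IL-2 and IL-4 family receptors. It had 20.12, 19.51 and 17.51 FPKM in Control and 19.81, 21.7 and 20.31 FPKM in CELF6-OE, with overlapping groups. The fold change was 1.06 (95% interval 0.962 to 1.17, edgeR adjusted p = 0.387). JAK1 made up 70.3% of the summed FPKM of the 3 kinase genes in Control and 74.6% in CELF6-OE. It shares 10 exon bases with RAVER2 (log2 fold change 0.36, edgeR adjusted p = 0.0370) and 647 (4.91%) with LINC01359, which had 0 to 4 counts per library.

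TYK2 pairs with JAK1 at the interferon alpha and beta receptor and with JAK2 at the IL-12 receptor. It had 7.13, 7.74 and 7.6 FPKM in Control and 6.62, 6.96 and 6.32 FPKM in CELF6-OE. Every CELF6-OE library lay under every Control library, by a small margin. The log2 fold change was -0.21 (SE 0.076, 95% interval -0.37 to -0.04, edgeR adjusted p = 0.0831), and the adjusted p ran from 0.0117 (without Control replicate 1) to 0.293 over the alternatives.

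JAK2, the kinase of the growth hormone, erythropoietin and interferon gamma receptors, was the least abundant member. It had 140, 112 and 83 counts in Control (0.70, 0.54 and 0.40 FPKM) and 79, 61 and 86 counts in CELF6-OE (0.41, 0.31 and 0.46 FPKM). Control replicate 3 lay among the CELF6-OE libraries. The log2 fold change of -0.49 had an SE of 0.21 and an edgeR adjusted p of 0.136 (95% interval -0.96 to -0.02), and the adjusted p ran from 0.0317 (without Control replicate 3) to 0.388 over 16 alternatives. With a library left out the log2 fold change ran from -0.66 (without Control replicate 3) to -0.31 (without Control replicate 1). Its spread, with a CV of 27.5% in Control, was the widest of the 9 genes.

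Ratios within a library show where members of a family moved unequally. The 6 pairs were compared by exact permutation tests, in which 0.1 is the smallest p. STAT2 fell against STAT3 by 0.64 on the log2 scale (SE 0.20) and against STAT6 by 0.62 (SE 0.20), and in both cases the groups did not overlap (p = 0.1 by the exact permutation test). JAK1 to TYK2 was 0.29 higher (SE 0.090) and JAK1 to JAK2 0.57 higher (SE 0.27) in CELF6-OE, again with no overlap (exact permutation p = 0.1). For JAK1 to JAK2 the groups nearly touched, with log2 ratios of 5.464 in CELF6-OE replicate 3 and 5.452 in Control replicate 3. JAK2 to TYK2 differed by -0.28 (SE 0.33), with overlapping groups and an exact permutation p of 0.5. The values of the pairs with JAK2 moved with single libraries. JAK1 to JAK2 was 0.37 higher without CELF6-OE replicate 2, and JAK2 to TYK2 differed by -0.05 without Control replicate 1, -0.08 without CELF6-OE replicate 2, -0.44 without CELF6-OE replicate 3 and -0.50 without Control replicate 3. None of the 6 can pass 0.05 in this design, and the adjusted values were 0.12, or 0.5 for JAK2 to TYK2.

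**Figure D3:**
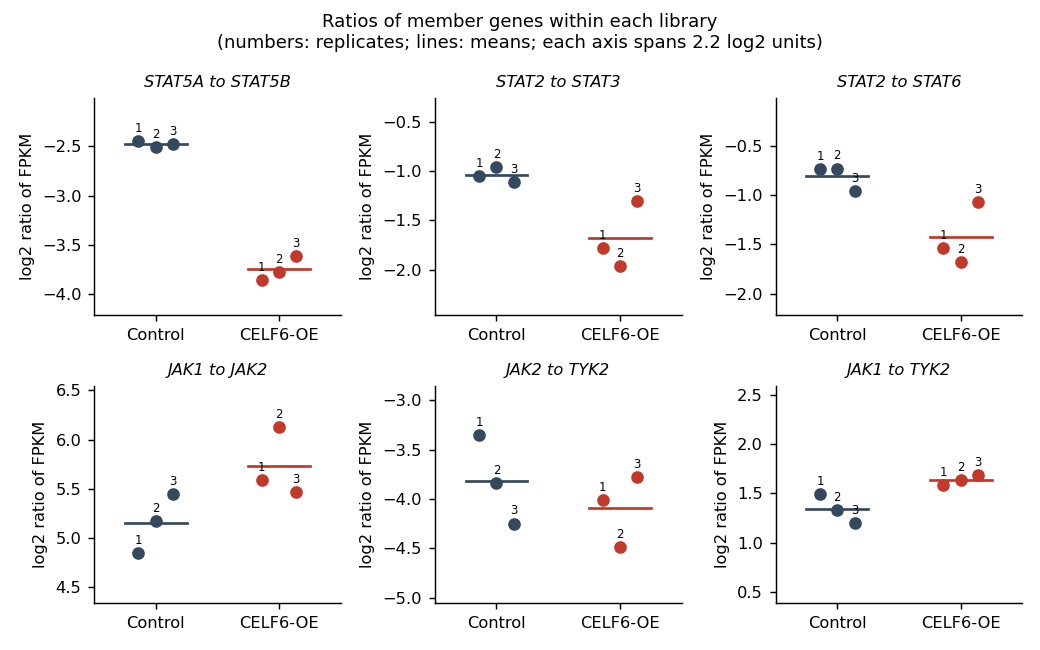
Log2 ratio of the FPKM of 2 members within each library (y axis; every panel spans the same range), with points for libraries, numbers for replicates and lines for group means. STAT5A to STAT5B shows the widest gap between the groups (-1.27), and JAK2 to TYK2 is the pair whose groups overlap. The groups of JAK1 to JAK2 nearly touch.

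For the members called DEG, the genes with the most similar profile over the 6 libraries were found among 13295 other protein-coding genes, as the root mean square difference of centred log2 CPM. Those nearest STAT2 were APOL2 (0.042), an apolipoprotein L, USP18 (0.0598), the protease that removes ISG15 and blocks the interferon receptor, and OAS1 (0.0639), a sensor of double-stranded RNA. They were at 0.492, 0.494 and 0.491 of their Control level, STAT2 at 0.496, and each was highest among CELF6-OE libraries in replicate 3: OAS1 had 88.57, 79.54 and 115.09 FPKM in CELF6-OE and 187.31, 190.06 and 187.37 FPKM in Control. Those nearest STAT5A were C3 (0.0495), the central complement component, APOBEC3F (0.0647), an antiviral cytidine deaminase, and PARP3 (0.0802), a DNA repair enzyme. C3 had 23.47, 26.39 and 29.1 FPKM in CELF6-OE and 56.79, 57.58 and 55.97 FPKM in Control. These genes were picked for their likeness over the same 6 libraries. The like fold changes and the like values at CELF6-OE replicate 3 therefore follow from that choice. The likeness is a description over libraries of 2 groups.

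**Figure D4:**
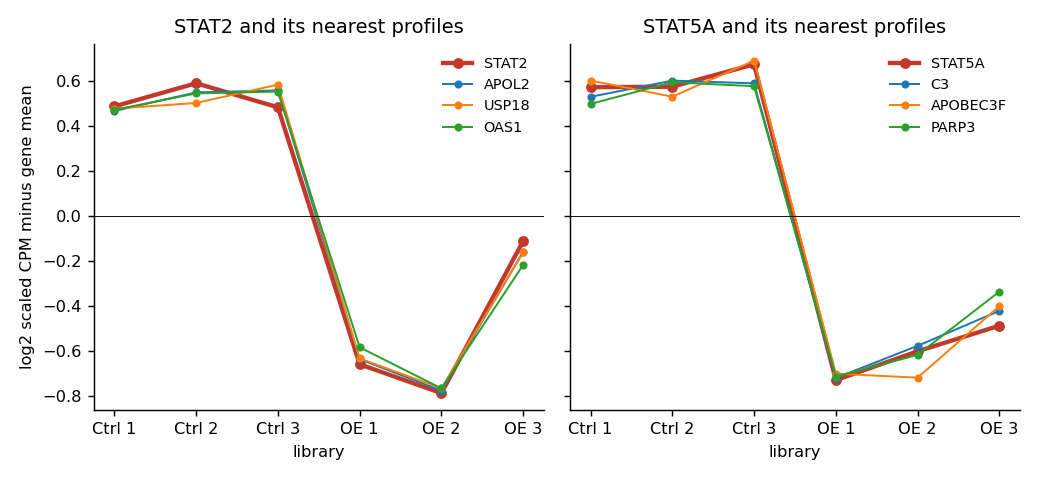
Log2 scaled CPM minus the gene's mean (y axis) over the 6 libraries (x axis; lines only join the points of a gene) for STAT2, STAT5A and the 3 nearest genes of each. The profile of STAT2 and its neighbours has a step up at CELF6-OE replicate 3, which is smaller for STAT5A and its neighbours. The neighbours were picked for this likeness, so their shared shape follows from the choice.

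The rest of the pathway was described by 7 lists with 218 symbols in all, of which 202 were in the table and 158 were tested. Of those, 77 were lower and 4 were higher in CELF6-OE at edgeR adjusted p under 0.05, and their median log2 fold change was -0.33. Of all 15847 genes tested, 11.5% were lower and 6.47% higher, and their median was 0.01. Each list is read against these shares. The lists had been drawn up with earlier results of these data known, so the counts are a description. The count of genes that were higher turned on single libraries: it was 15 without Control replicate 1, 2 without Control replicate 2 and 1 without CELF6-OE replicate 2.

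Among the receptors that carry JAK kinases, 13 of 23 tested were lower (median log2 fold change -0.29). The 1 that was higher is 4.35% of them, near the 6.47% of all genes. The common gamma chain IL2RG, shared by the receptors for IL-2, IL-4, IL-7 and IL-15, went from 1.97 ± 0.25 to 0.383 ± 0.086 FPKM. IL15RA (log2 fold change -1.37), the oncostatin M receptor OSMR (-0.59), IL22RA1 (-0.95) and the interferon gamma receptor chain IFNGR1 (-0.59) were also lower, with edgeR adjusted p at most 0.00115. The 1 receptor that was higher, IL6R, had 1.73 ± 0.22 FPKM in CELF6-OE against 1.29 ± 0.059 in Control (log2 fold change 0.39, adjusted p = 0.0339 by edgeR). The type I interferon receptor chains, named here for their tie to TYK2 and JAK1 after their values were seen, differed: IFNAR2 was lower (-0.28, edgeR adjusted p = 0.0270), and IFNAR1 did not pass (0.10, adjusted p = 0.430).

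Of 16 ligand genes tested, 8 were lower and 0 were higher at edgeR adjusted p under 0.05, with a median of -0.98. IFNB1 had 6.15 ± 0.77 FPKM in Control and 0.737 ± 0.39 in CELF6-OE. The type III interferons IFNL1 (-3.17), IFNL2 (-3.12) and IFNL3 (-3.15) fell together on the log2 scale; IFNL2 and IFNL3 are near-identical copies whose reads may be split between them. IL6, the ligand upstream of STAT3, went from 4.52 ± 0.22 to 1.37 ± 0.42 FPKM.

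Of 34 target genes of ISGF3, the complex that contains STAT2, 33 were lower and 0 were higher at edgeR adjusted p under 0.05, with a median log2 fold change of -1.45. IFIT2 went from 70.6 ± 10.5 to 11.1 ± 3.64 FPKM, BST2 from 132 ± 2.63 to 19.3 ± 9.71, and OASL from 152 ± 7.03 to 36.2 ± 11.6, with ISG20 (-2.03) and MX2 (-2.40) also among those with the smallest p. IFIT5, singled out as the one gene not called, had a log2 fold change of -0.27 and an edgeR adjusted p of 0.0960.

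Of 23 target genes of STAT3, 12 (52.2%) were lower and 1 (4.35%) was higher, against 11.5% and 6.47% of all genes. Their median was -0.35. Serum amyloid SAA1 went from 10.7 ± 2.67 to 1.78 ± 0.51 FPKM and the fibrinogen chain FGA from 45.9 ± 9.31 to 20.3 ± 5.77, and the immediate early gene JUNB (-0.69) and the RNA decay factor ZFP36 (-0.67) were lower by less. SAA2 (-2.72) is a near copy of SAA1, with which it may share reads. BIRC5, the apoptosis inhibitor survivin, was the one that was higher (0.33, edgeR adjusted p = 0.00679). Of 11 targets of STAT5 or STAT6, 6 were lower and 0 were higher (median -0.72). The chemokine CCL17 went from 3.68 ± 0.64 to 0.207 ± 0.071 FPKM, the transglutaminase TGM2 from 529.9 ± 23.4 to 294.6 ± 20.2 FPKM, and DUSP5 (-0.53), FOXA3 (-0.73) and CCL26 (-0.72) were lower.

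Inhibitors and partners of the pathway had medians near 0. Of 23 inhibitors, 4 (17.4%) were lower and 1 (4.35%) was higher, near the 11.5% and 6.47% of all genes, with a median of 0.03. USP18 (-1.02), PTPN6 (-0.56), SOCS3 (-0.55) and SOCS1 (-0.99) were the lower ones, and the phosphatase PTPN11 was the higher one (0.43, edgeR adjusted p = 0.00877). Of 28 partners and cofactors, NMI, which binds STAT proteins, was the 1 that was lower, from 53.3 ± 3.85 to 23.8 ± 5.57 FPKM. KPNB1, an importin that carries proteins into the nucleus, was the 1 that was higher (0.30, edgeR adjusted p = 0.0122), and the median of the list was 0.05.

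**Figure D5:**
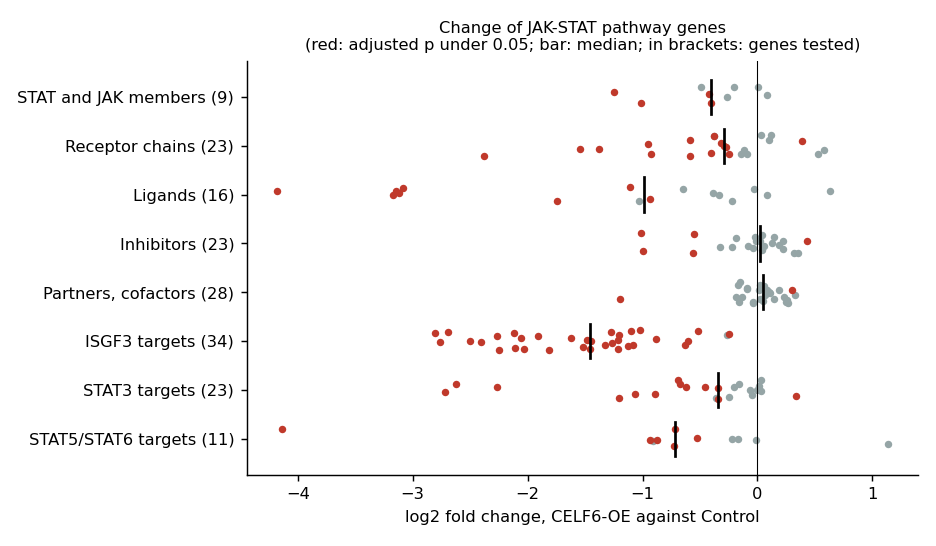
Log2 fold change in CELF6-OE against Control (x axis) of the 9 STAT and JAK genes and of the tested genes of each pathway list; red points have an adjusted p under 0.05, black bars are medians and the number in brackets is the genes tested. The ISGF3 targets lie furthest left (median -1.45), and the inhibitors (0.03) and partners (0.05) centre on 0.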

How the data were processed

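Polyadenylated RNA of A549 cells, 3 CELF6-OE and 3 Control libraries, was sequenced by the authors with a stranded kit and 150 nt paired-end reads. Reads were trimmed, aligned to GRCh38 with TopHat2, and those with 1 genomic location were counted per gene; the strand setting of the counting and the annotation release are not given in the sources used here. The authors deposited raw read counts and FPKM values of the genes they detected.

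Counts were fitted in R 4.3.3 with edgeR 4.0.16 (TMM scaling, filterByExpr with a minimum count of 10, glmQLFit and glmQLFTest, no replicate block) over 15847 of 29889 genes, with Benjamini-Hochberg adjustment over all of them. A gene was called changed at adjusted p under 0.05, and DEG at p under 0.01 together with a 1.5-fold or larger difference. Log2 fold changes use a prior count of 0.125, and intervals are 95% intervals of the fit. The study fitted detected genes; with no filter the prior degrees of freedom were infinite, so the filtered fit was preferred. FPKM served for levels, ratios and figures. Alternatives used DESeq2 1.42.0, limma 3.58.1 and other scalings. Scripts were tested on simulated data.

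Named were all 9 members, at most 5 genes per pathway list with the smallest p (IL6R, BIRC5, IFIT5, IFNAR1, IFNAR2, IL20RA and IFNL4 were added after their values were seen), the 3 nearest profiles of each DEG member, and genes whose exons overlap a member. Members and lists were chosen with earlier results of these data known. STAT and JAK genes other than these 9 are not reported here. Replicates with the same number did not deviate together, and no sample was left out. The study calls the replicates biological; whether each was transfected separately is not given in the sources used here, and the p-values measure the spread between these libraries. Gene positions are from GENCODE release 44 and promoters from RefSeq (GRCh38.p14); 97.13% of the identifiers matched GENCODE.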

Additional observations from a re-analysis of the deposited data

How the results depend on the processing

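STAT2, STAT3, STAT5A and STAT6 were lower at adjusted p under 0.05 in all 17 alternatives, and 4 members were called in each alternative other than no filter (5, with JAK2) and those that left out Control replicate 1 (5, with TYK2) or Control replicate 3 (6, with STAT4 and JAK2). With each library left out in turn, the number of members called ran from 4 to 6 and that of DEG members from 2 to 3. With limma on log2(FPKM + 1) 1 member was a DEG (main 2). This pseudocount understates changes near 1 FPKM. JAK2 fell below the minimum FPKM of that analysis and was not tested, and STAT5A reached the minimum only in Control. The log2 fold change of STAT5B turned to -0.0094 without CELF6-OE replicate 2 and to -0.0335 without Control replicate 1, in a range up to 0.0418 with a library left out; the cause was not tested. The number of other pathway genes that were higher, 4, became 7 with upper quartile scaling, 8 with no filter, 9 with the edgeR exact test, 9 with the likelihood ratio test, and 1 to 15 with a library left out, whereas the number lower (77) ran from 64 to 83 with a library left out. With log2(FPKM + 0.1) the STAT5A to STAT5B difference was -1.11. Same-numbered libraries did not deviate together (correlations of their deviations -0.0113, -0.0212 and -0.0722), which cannot show whether they were prepared together. With the replicate number as a block 4 members were called, 2 were DEGs, and 72 pathway genes were lower and 4 higher; the exact paired sign-flip permutation test of the ratios cannot go below p = 0.25. Over all genes, 1820 were lower and 1025 higher; library size alone gave 1516 and 1288, leaving out Control replicate 1 gave 2370 and 1906, and leaving out Control replicate 2 gave 1032 and 287. JAK2 (SE 0.21), with few counts, and STAT2 (SE 0.14), with uneven CELF6-OE libraries, had the least precise fold changes.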
